A study of Oryza sativa with 239 samples.

Results

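Leaf messenger RNA of irrigated rice was compared between 2 temperate japonica cultivars, Koshihikari and WRC01, and 7 other japonica cultivars, KP, WRC46, WRC47, WRC48, WRC50, WRC51 and WRC55. The comparison used only libraries labelled control, 6 on the temperate side and 21 on the other, which are 27 of the 239 libraries of the series. The whole series covers 40 rice cultivars and lines, each grown irrigated or under a drought that the titles call moderate. All plants were rice (*Oryza sativa*) raised in a growth chamber, one seedling to a pot with automatic irrigation. The youngest fully expanded leaf and the next older one were collected on day 5 of the treatment, and every cultivar had 3 control replicates. The labels name the cultivar and the treatment but not the varietal group, so the sides were set for this comparison and rest on no label. WRC numbers are those of the World Rice Core collection, and the labels leave the abbreviation KP unexplained. Whether every library came from a plant of its own is not stated, so differences between replicates may be partly technical.

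Cultivated Asian rice falls into the japonica and indica groups and smaller ones such as aus. Within japonica, temperate varieties are grown mainly in paddies of cooler East Asia, and tropical varieties mainly in uplands and lowlands of Southeast Asia and the Americas. Temperate japonica is known for low genetic diversity, and its varieties descend from a narrow part of the japonica pool. WRC01 is the collection's number for Nipponbare, the temperate variety from which the IRGSP-1.0 reference genome was assembled. Reads were counted on gene models of that genome, so a gene that is missing from that genome has no row in the table. Whether reads of the other cultivars were assigned to these models as completely as those of the temperate pair was not tested. A low count outside the temperate pair therefore need not mean a low messenger RNA level. The part that the choice of this genome plays in the results was not tested either.

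Assigned reads ran from 7.46 to 22 M (mega-reads) in the temperate libraries (median 15.5 M) and from 5.99 to 23.6 M in the others (median 15.9 M). All 27 libraries were closest in profile to replicates of the same cultivar. None of the 55986 identifiers occurred in the reference table at hand, so genes are given by identifier, without name or role, and the leaf label could not be checked against marker genes. Their chromosome was read from the identifier. Levels are CPM, counts scaled to a common library total, with totals adjusted by TMM (trimmed mean of M values).

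Koshihikari and WRC01 were more alike than any other pair of the 9 cultivars. Their mean profiles correlated at 0.983 across the 22657 tested genes on the log2 scale. Between a temperate and another cultivar the correlation lay between 0.898 (WRC01 with WRC55) and 0.94 (Koshihikari with WRC47). Among the 7 others it lay between 0.913 and 0.965, the highest being WRC46 with WRC48, with a median of 0.933. These are descriptions across genes, which are not independent replicates. The 7 cultivars were thus, by the medians, about as far from each other (0.933) as from the temperate pair (0.924).

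The comparison took the cultivar as its unit. The 3 control libraries of each cultivar were summed, and 2 sums were tested against 7 with edgeR's quasi-likelihood test. A gene was called when its adjusted p was under 0.05, its fitted fold was at least 2, and the mean CPM of both temperate cultivars lay outside the range of the other 7. By this rule 170 genes differed, 0.75% of those tested, with 56 lower in the temperate pair (0.247% of tested genes) and the others higher (0.503%). With a single temperate cultivar left, whose spread is then taken from the other side, 89 genes were called without Koshihikari and 82 without WRC01. The test for p and fold alone passed 177 genes, of which 7 failed the range. Before adjustment, p lay under 0.05 in 3071 genes, against 1133 if p values were spread evenly. Over the 22657 genes the median log2 fold change was -0.02.

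The balance of higher and lower genes depended on the test. DESeq2 on the same sums called 635 genes, including 169 of the 170, with 227 higher and 408 lower. By the range rule with a fold of at least 2 between the side means, and no test, 1283 genes (5.66% of those tested) separated the sides, 603 of them higher and 680 lower. At any fold the range rule was met by 3757 genes (16.6%).

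Most called genes differed by large folds. In the genes called higher the fitted log2 fold change had a median of 6.79, and in the 56 called lower it was -4.09. With genes of at most 3 reads on the low side set to that limit, the medians were 6.58 and -3.61. The fitted fold was at least 16 in 81 genes called higher and in 28 called lower. Among all tested genes, called or not, it was at least 16 in 161 higher and in 763 lower. Of the latter 735 were not called, and 673 of these had at least 1 of the 7 others under 0.1 CPM. That held for 0 of the genes called lower. Among genes that also met the range rule, the fitted fold was at least 16 in 127 higher and 130 lower. Of these 81 and 28 were called, so the called genes do not show the balance of large fitted folds. On the side where they were low, 39 of the genes called higher had at most 3 reads over the 21 other libraries together, and 16 of those called lower had at most 3 over the 6 temperate libraries. In 149 of the 170 genes every temperate library, not only the cultivar mean, lay outside the range of the 21 others, 45 of these genes being lower and the rest higher.

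**Figure D1:**
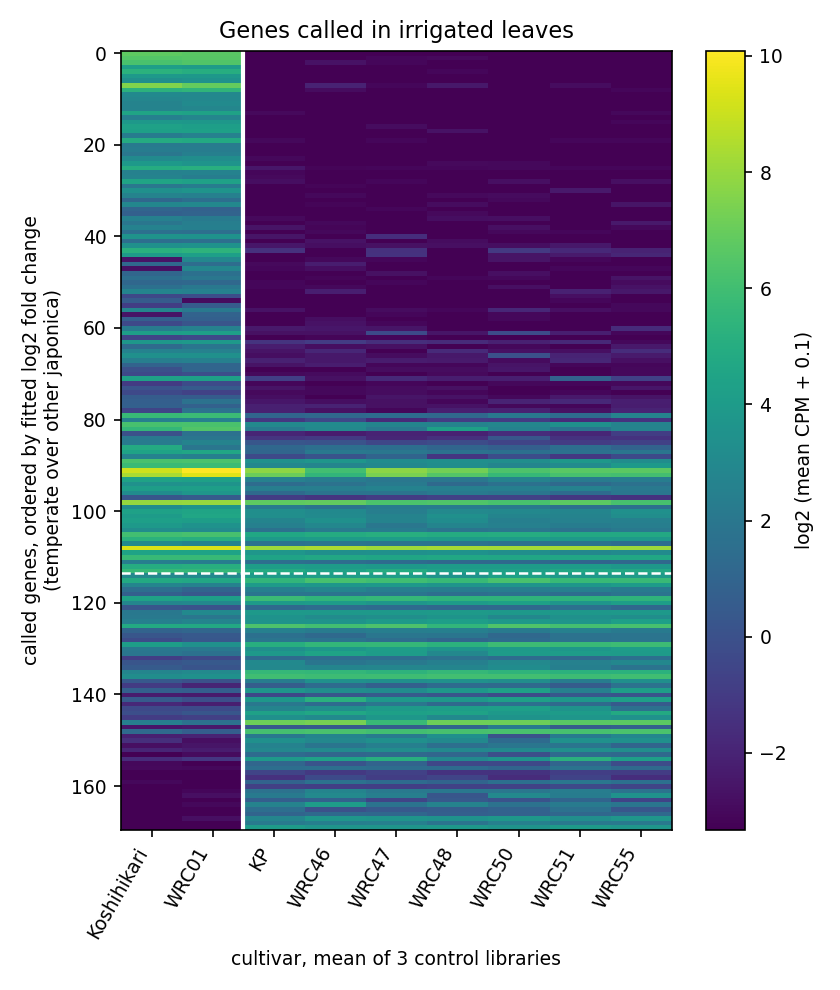
Mean level of the 170 called genes in irrigated leaves, as log2 of CPM plus 0.1, with 1 row per gene and 1 column per cultivar (mean of 3 control libraries). The white vertical line divides the temperate pair from the other 7 cultivars, and the dashed line divides the genes called higher in the temperate pair from the 56 called lower. Dark cells near the top right and the bottom left are genes at or near 0 on one side, and in a few rows above the dashed line only 1 of the temperate cultivars had an appreciable level.

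Among called genes at a mean of at least 5 CPM, LOC_Os09g17329 on chromosome 9 had the largest fitted fold. In Koshihikari it stood at 60, 169 and 91.5 CPM, and in WRC01 at 70.9, 95.8 and 139 CPM. It had 0 reads in all 21 libraries of the other 7 cultivars. Against a limit of 3 reads over the 21 libraries, the temperate pair was at least 11300-fold higher (edgeR, adjusted p = 0.0056). With 1 temperate cultivar in the test p missed the threshold, at an adjusted p of 0.14 without WRC01 and 0.13 without Koshihikari by edgeR, although the libraries of both cultivars, given above, lay in overlapping ranges far from 0. LOC_Os02g50540 on chromosome 2 had the next largest fitted fold. Its lowest temperate library stood at 82.4 CPM and the median of the 6 at 93.1, and the other 21 held 2 reads in all, 1 in WRC47 and 1 in WRC48. The sides did not overlap, and the ratio was 15000 with a counting interval at 95% of 4150 to 124000 (edgeR, adjusted p = 3.6e-06). Intervals and limits of this kind cover counting error only.

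The genes called lower showed the mirror image. LOC_Os09g25470 on chromosome 9 had 0 reads in the 6 temperate libraries, although its model is annotated on the Nipponbare genome. In the others it ran from 9.96 to 18.5 CPM with a median of 13.7, and the 7 cultivar means stood close together at 13.8 ± 1.6 CPM (SD, n = 7 cultivars). It was at least 398-fold lower in the temperate pair against the limit of 3 reads (edgeR, adjusted p = 3.6e-06). LOC_Os08g20230 on chromosome 8 had 1 read over the temperate libraries, in WRC01, and 5.72 to 17.2 CPM in the others, with a median of 11.2. Its lowest cultivar mean on that side was 6.69 ± 1.48 CPM in KP (SD, n = 3), still far above the temperate pair, and the ratio was 976 with a counting interval of 175 to 38600 (edgeR, adjusted p = 0.00019).

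**Figure D2:**
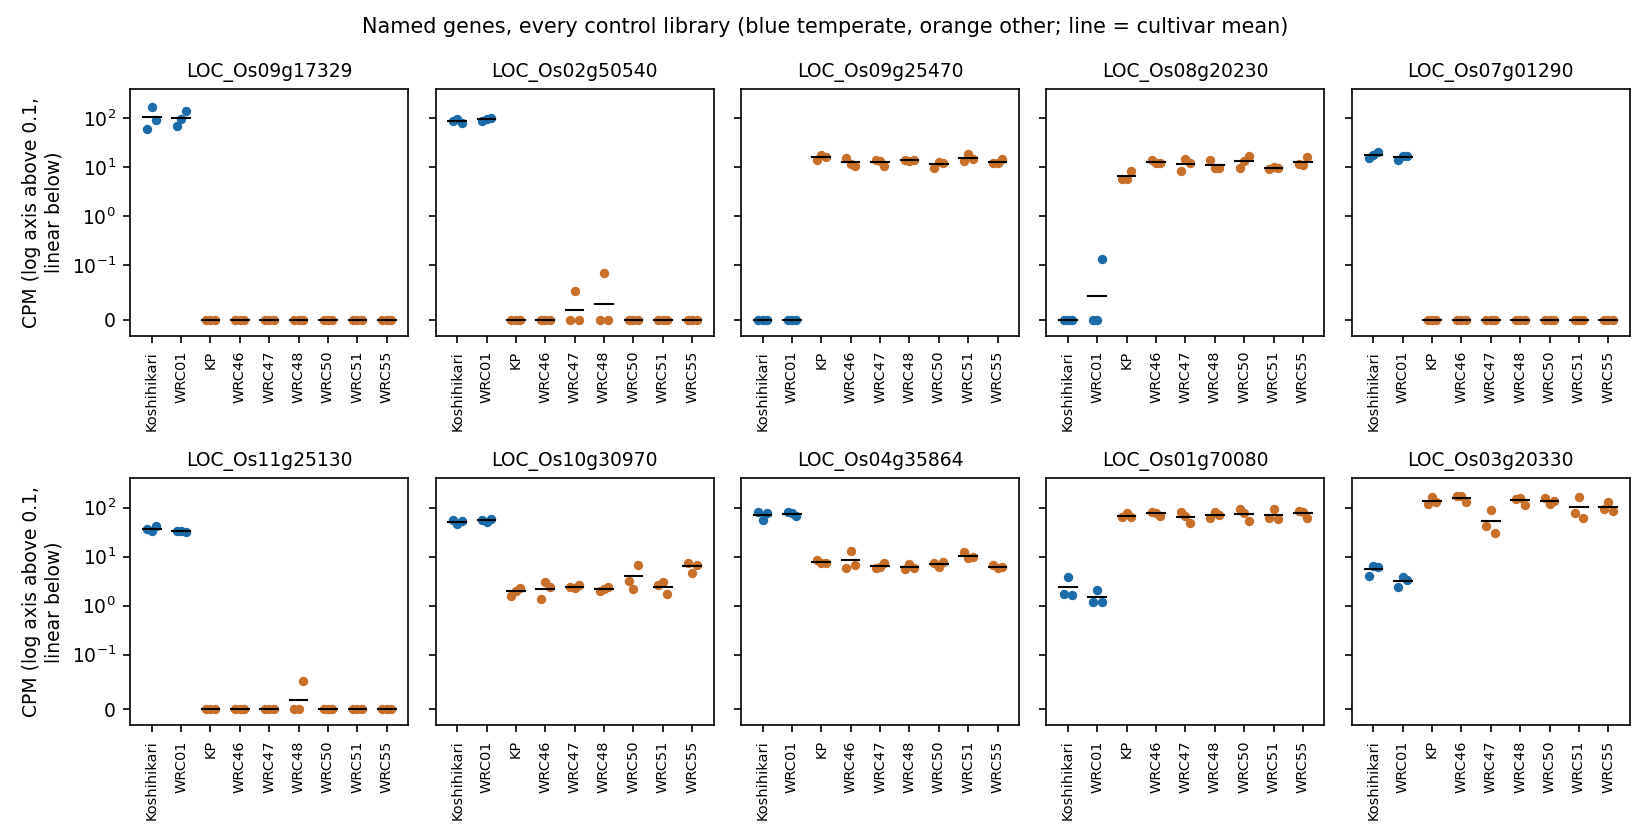
CPM of the 10 named genes in each of the 27 control libraries (points) with cultivar means (lines), temperate in blue and other japonica in orange. The axis is logarithmic above 0.1 CPM and linear below. In every panel the 6 temperate libraries lie apart from the 21 others, in 6 panels with one side at or near 0 and in the last 4 with reads in all cultivars.

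A stricter count took genes with 0 reads in all libraries of one side and no library under 5 CPM on the other. It held for 9 genes (0.0397% of those tested), 8 read in the temperate pair and 1 in the other cultivars, and 8 of the 9 were among the called genes. The minimum of 5 CPM had to be met in 6 libraries on the temperate side and in 21 on the other. The split between the sides was thus not counted on equal terms. The gene of the other cultivars was LOC_Os09g25470, described above. Of the 8 temperate genes, LOC_Os09g17329 had the highest level and LOC_Os07g01290, on chromosome 7, the next. LOC_Os07g01290 ran from 14.5 to 20.8 CPM in the temperate libraries with a median of 17.2, at least 1880-fold above the limit of 3 reads (edgeR, adjusted p = 0.015). Here too p missed the threshold with 1 temperate cultivar in the test, at an adjusted p of 0.33 without WRC01 and 0.29 without Koshihikari by edgeR, while the levels were 18.3 ± 2.6 CPM in Koshihikari and 16.3 ± 1.58 CPM in WRC01 (SD, n = 3). The count followed the limits chosen, with 22 genes (19 temperate, 3 other) when 1 CPM sufficed and 20 (18 and 2) when up to 3 reads over the other side were allowed. Without the libraries numbered replicate 2 it was 15.

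A smaller group was read in all 9 cultivars and differed by degree. With at least 1 CPM in every cultivar mean there were 52 called genes, 29 higher and 23 lower, or 30.6% of the called genes against 70.7% of the tested ones. Their median absolute log2 fold change was 1.42. The genes named from this group were chosen after their values were seen, as those with the largest fold at a mean of at least 5 CPM.

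LOC_Os10g30970 on chromosome 10 stood at 53.9 ± 2.19 CPM in the temperate pair (SD, n = 2 cultivars) and at 3.1 ± 1.58 CPM in the others (SD, n = 7), which gave a log2 fold change of 4.16 (SE 0.40; edgeR, adjusted p = 0.0016). Its libraries ran from 47.1 to 60 CPM and from 1.35 to 7.43 CPM. The upper end of the latter lay in WRC55 and in replicate 3 of WRC50 (6.74 CPM). Replicates 1 and 2 of WRC50 stood at 3.18 and 2.15 CPM. LOC_Os04g35864 on chromosome 4 had 74.2 ± 2.8 against 7.59 ± 1.55 CPM, a log2 fold change of 3.35 (SE 0.18; edgeR, adjusted p = 5.5e-05). Its temperate libraries ran from 55.6 to 82.9 CPM and the others from 5.66 to 13.4 CPM, so the groups lay well apart.

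Among the graded genes that were lower, LOC_Os01g70080 on chromosome 1 had the largest fold at a mean of at least 5 CPM. Its temperate libraries ran from 1.18 to 3.85 CPM with a median of 1.68, and the others from 49.6 to 95.3 CPM with a median of 70.7. The 7 cultivar means lay at 72.6 ± 4.06 CPM (SD), against 1.94 ± 0.652 CPM in the temperate pair, a log2 fold change of -5.17 (SE 0.23; edgeR, adjusted p = 1.5e-05). LOC_Os03g20330 on chromosome 3 stood at 4.4 ± 1.67 against 120 ± 35.9 CPM, with a log2 fold change of -4.73 (SE 0.54; edgeR, adjusted p = 0.0045). In this gene the others were uneven, with means from 54.5 ± 32.3 CPM in WRC47 to 161 ± 23.9 CPM in WRC46 (SD, n = 3), and the call was lost without WRC01, at an adjusted p of 0.071 by edgeR.

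In 4 of the genes called higher, one of the temperate pair was under 0.1 CPM and the other at 1 CPM or more. The range rule was met there because the other 7 cultivars were lower still.

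Called genes were spread over all 12 chromosomes with more than their share on chromosome 6. It held 33 of the 170 (19.4%), 27 higher and 6 lower, against 8.15% of the tested genes. Chromosome 11 held 11.2% of the called and 5.75% of the tested genes, whereas chromosome 3 held 5.88% and 12.5%. Neighbouring genes are not independent, and these shares are descriptions without a test. The share on chromosome 6 was lower under rules that call more genes, at 11.3% with DESeq2 and 10.4% of the 1283 genes that separated the sides by range and fold.

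The excess on chromosome 6 lay in 1 part of it. From LOC_Os06g14240 to LOC_Os06g28990, end points chosen after the values were seen, 23 of 338 tested genes were called (6.8%), 19 of them higher in the temperate pair. On the rest of the chromosome 10 were called, or 0.663%. Within that part, 13 of 40 consecutive tested genes from LOC_Os06g15570 to LOC_Os06g16919 were called, 12 higher and 1 lower.

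The 12 higher genes had temperate means from 0.718 to 153 CPM, and their means in the other 7 cultivars were at most 8.78 CPM. In 5 of the 12 the other libraries held at most 3 reads in all. LOC_Os06g16050, the one at 153 CPM, had 185 CPM in Koshihikari and 121 in WRC01, against 12 reads over the 21 other libraries. The single gene that was lower, LOC_Os06g15680, had 0.685 CPM in the temperate pair and 12 CPM in the others, and it was 1 of the genes that no longer separated the sides under drought. At lower identifiers, all 5 consecutive tested genes from LOC_Os06g14240 to LOC_Os06g14350 were called, 2 higher and 3 lower. The genes of this part thus did not move in one direction.

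**Figure D3:**
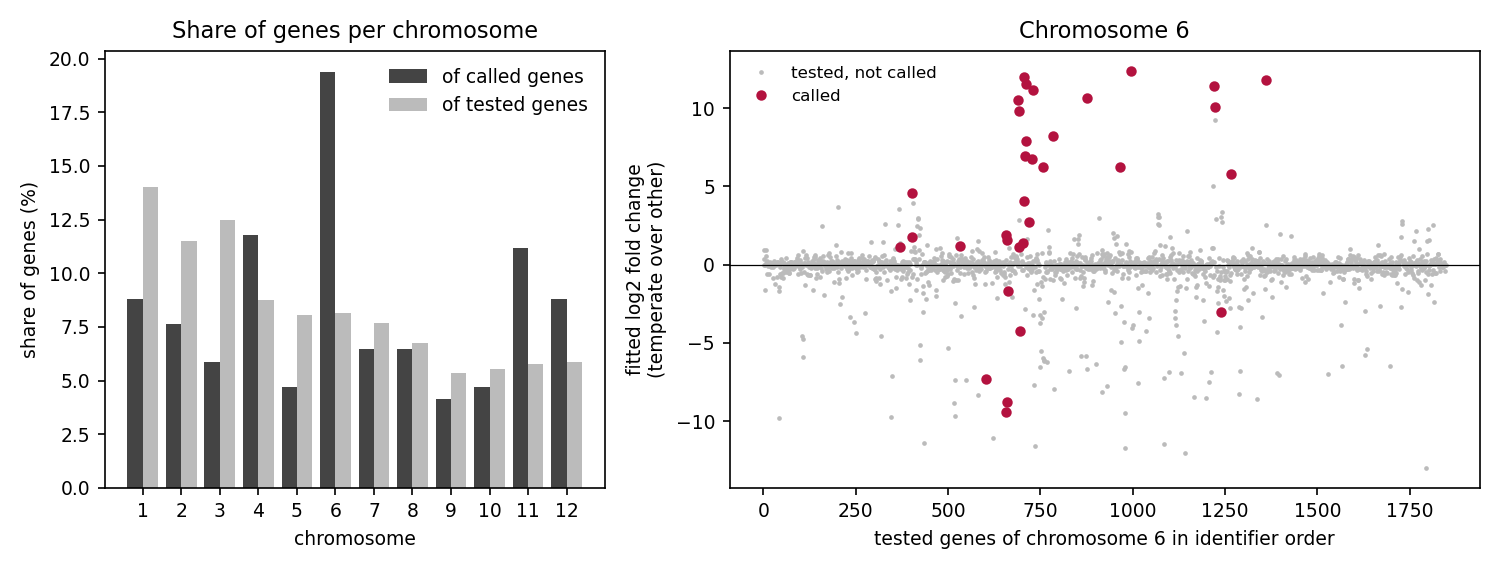
Left, the share of the 170 called genes (dark) and of the 22657 tested genes (light) on each chromosome, in percent. Right, the fitted log2 fold change of the temperate pair over the other japonica for the 1847 tested genes of chromosome 6 in identifier order, with the 33 called genes in red. Chromosome 6 holds 19.4% of the called genes, and 23 of its 33 lie in the stretch of 338 tested genes described in the text.

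Shorter groups of neighbours occurred elsewhere. A stretch held at least 3 called genes, each at most 10 positions after the one before in the order of tested genes. There were 10 such stretches with 46 called genes in all. Those outside chromosome 6 held 3 to 5 called genes. All 3 tested genes from LOC_Os04g35864 to LOC_Os04g35880 on chromosome 4 were called higher, as were 3 of 4 from LOC_Os01g57270 to LOC_Os01g57340 on chromosome 1. On chromosome 11, LOC_Os11g40830 to LOC_Os11g41380 held 5 called genes of 16 tested and LOC_Os11g44014 to LOC_Os11g44430 held 4 of 10, in both directions. How reads with several positions were counted is not given in the sources used here, so near-identical neighbours cannot be told apart.

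The remaining 31 cultivars and lines of the series, irrigated as well, placed both sides within the collection. For each called gene it was counted how many of them lay nearer to the temperate mean than to the mean of the 7, on log2 of CPM plus 0.1. The median was 1 of 31 for genes called higher and 5 of 31 for genes called lower. In 41 genes called higher and 11 called lower, none of the 31 lay nearer to the temperate pair. More than 15 did so in 10 genes called higher and 11 called lower. At most called genes, then, most of the 31 lay on the side of the other japonica cultivars. This was counted for called genes only, so it is not shown to be particular to them. Over all tested genes, too, the profiles of all 31 correlated more with the 7 than with the temperate pair.

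Genes at which none of the 31 lay with the temperate pair included LOC_Os07g01290, LOC_Os11g25130, LOC_Os09g25470 and LOC_Os08g20230. LOC_Os07g01290 had 0 reads in 28 of the 31 cultivars and at most 0.0248 CPM in the rest. LOC_Os11g25130, on chromosome 11, ran from 31.3 to 42 CPM in the temperate libraries with a median of 34, had 1 read over the other 21 japonica libraries, and had at most 0.896 CPM in the 31 cultivars, with 0 reads in 18 of them. Its ratio between the sides was 11400, with a counting interval of 2050 to 452000 (edgeR, adjusted p = 1.5e-05). In the opposite direction LOC_Os09g25470, at 0 in the temperate pair, had 4.16 to 16.9 CPM in the 31, and LOC_Os08g20230 had 2.42 to 17.7 CPM. LOC_Os01g70080, at 1.94 CPM in the temperate pair, had 20.6 to 71.3 CPM in the 31.

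At other called genes part of the 31 lay nearer to the temperate pair, though not always near its level. LOC_Os09g17329 was at most 7.58 CPM in the 31, with 0 reads in 15 of them, so no other cultivar came near the temperate level, but 9 lay nearer to it on the log scale than to 0. LOC_Os02g50540 reached 57.7 CPM in 1 of the 31 and had a median of 0.104 CPM. LOC_Os03g20330 ran from 1.5 to 259 CPM, with 10 of the 31 nearer to the temperate pair. On chromosome 6, LOC_Os06g16050 ran from 0 to 253 CPM in the 31, with 15 nearer to the temperate level and 9 at 0 reads. The 12 higher genes of that stretch differed in this respect, with at most 3 of the 31 nearer to the temperate pair in 7 of them and 12 to 15 in the other 5.

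By cultivar, WRC57 lay nearer to the temperate pair at 27.1% of the 170 genes, the largest share of the 31. WRC23 lay nearer to it at 5.88%, and the next lowest share was 14.1%. WRC23 fell within the range of the 7 other japonica cultivars at 66.5% of the genes.

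**Figure D4:**
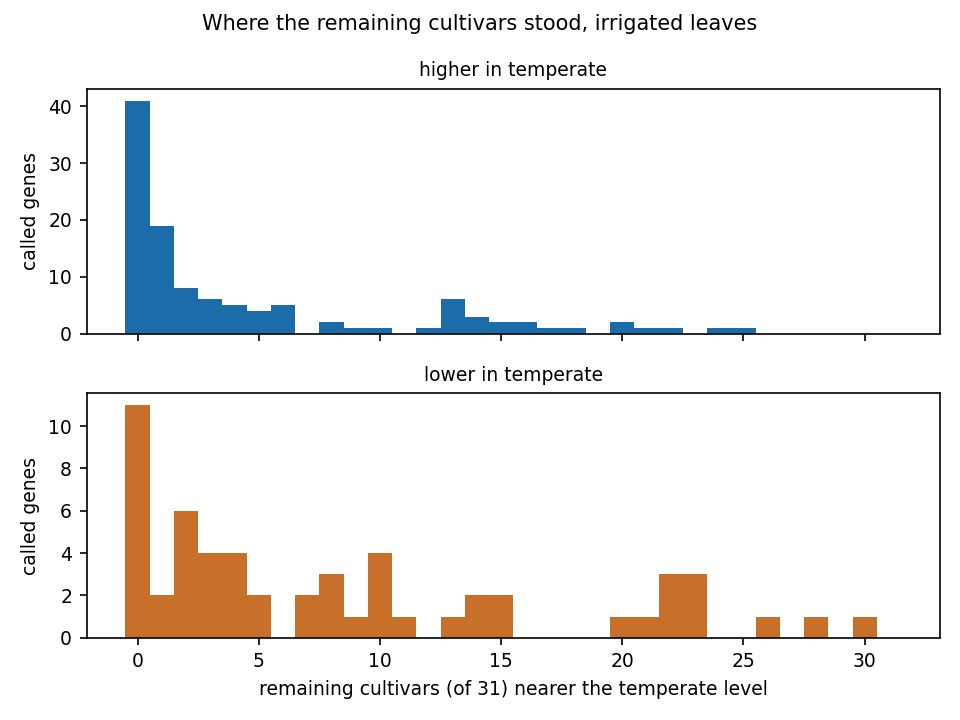
Number of the remaining 31 cultivars whose irrigated level lay nearer to the temperate pair than to the other japonica cultivars, for the genes called higher (top) and the 56 called lower (bottom). Bars count genes. In 41 and 11 genes the number was 0, and the medians were 1 and 5.

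Drought leaves of the same 9 cultivars gave a second set of libraries. Their titles call the drought moderate, whereas the treatment protocol in the labels describes a severe one followed by rewatering, so its strength at harvest is uncertain. Of 27 drought libraries, WRC47 replicate 3 held 362 reads and was left out, and the other 26 held 3.01 to 30.2 M reads. The same rule called 133 genes in them (0.579% of 22987 tested), 99 higher and 34 lower. There were 96 genes called under both treatments, all in the same direction, which is 56.5% of the genes called in irrigated leaves and 72.2% of those called in drought leaves.

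Nearly all called genes kept their separation under drought. Of the 164 that were tested there, all had the same sign, and in 155 (94.5%) both temperate cultivars again lay outside the range of the other 7 on the same side. Of all genes that met the range rule in control leaves and were tested in drought leaves, 39.5% of 3701 kept it on the same side, and 49.7% of the 1234 with a fold of at least 2 did. In drought leaves alone 13.7% of tested genes met the range rule in either direction. The median log2 fold change in drought leaves was 7.08 for genes called higher in control leaves and -2.89 for those called lower. These are the same cultivars, so the second set checks the libraries and the treatment, not the choice of cultivars. In drought leaves LOC_Os09g17329 stood at 64.2 CPM in the temperate pair and at 0 in the others, and LOC_Os09g25470 at 0 and 13.3 CPM.

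**Figure D5:**
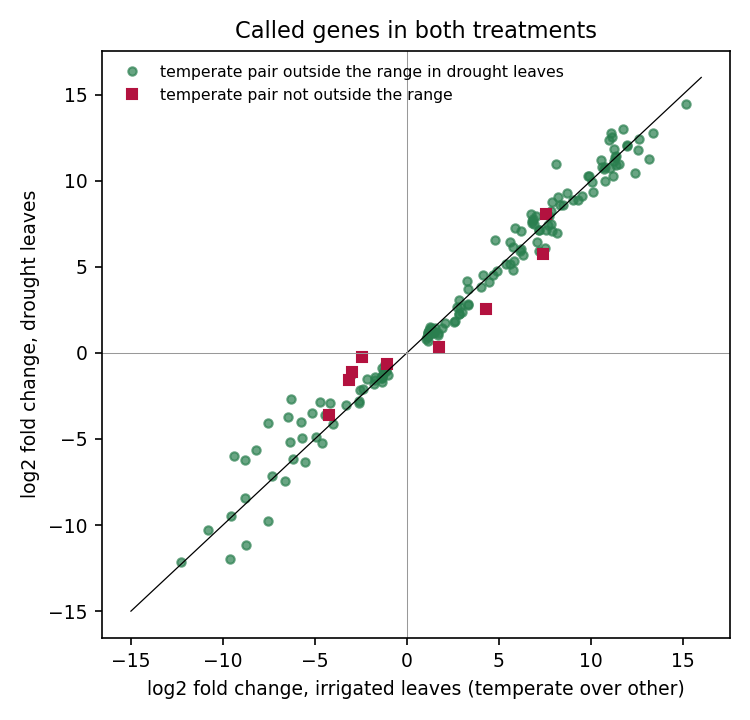
Fitted log2 fold change of the temperate pair over the other japonica in irrigated leaves (horizontal) and drought leaves (vertical) for the 164 called genes tested under both treatments, 1 point per gene, with the line of equal change. Red squares are the 9 genes in which the temperate pair no longer lay outside the range of the other 7 under drought. All points lie in the quadrants of equal sign.

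Whether the difference between the sides itself changed with drought was tested over both treatments with cultivar as a term, a test added after the data were seen. It passed 1 of 23939 genes (0.00418%), LOC_Os03g20330. Before adjustment 1365 genes (5.7%) had p under 0.05, against 1197 for an even spread. Among the 170 called genes 21 did (12.4%). These were chosen with control libraries that also entered this test, so the 2 shares are not on equal terms. The called genes LOC_Os01g70080 (log2 difference of responses 1.71) and LOC_Os06g08570 (-1.389) just missed the threshold (edgeR, adjusted p = 0.0625). In Koshihikari LOC_Os03g20330 went from 5.77 ± 1.37 to 22.8 ± 19.2 CPM and in WRC01 from 3.33 ± 0.789 to 18.4 ± 8.94 CPM (SD, n = 3). In the 7 others the ratio of drought to control means lay between 1.15 in WRC47 and 1.7 in WRC50, against 3.95 and 5.51 in the temperate cultivars. The log2 difference of responses was 1.94 (SE 0.18; edgeR, adjusted p = 0.015). Without replicates numbered 1 it was 1.11 (adjusted p = 1) and without those numbered 2 it was 1.92 (adjusted p = 0.12), so the call depended on the libraries numbered 1 and 2.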

How the data were processed

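The deposited table holds raw read counts per gene model, 1 column per library. The tools listed in the submitters' processing notes are STAR and featureCounts 2.0.0, with build IRGSP-1.0. The annotation release, strand setting and treatment of multiply mapped reads are not given in the sources used here. Columns were joined to labels by library name, and 0 were left unmatched. Gene lists prepared for this work matched 0 identifiers and were not tested.

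Genes passed filterByExpr (minimum count 10) on the 27 control libraries, and sums per cultivar were tested with edgeR 4.0.16 in R 4.3.3 (TMM scaling, glmQLFit, glmQLFTest, Benjamini-Hochberg over all tested genes), after a test on simulated data. The p values measure the spread among cultivars within the sides, which came mostly from the 7 others, as the temperate side had 2. Koshihikari and WRC01 counted as independent cultivars, although their profiles correlated at 0.983. What this closeness does to the p values was not tested. The SE given with an edgeR log2 value was derived from the test, as the absolute value divided by the square root of its F statistic. Named genes are, per direction, the 2 with the largest fold at a mean of at least 5 CPM among called genes, genes read on one side only, and genes with none of the remaining cultivars nearer the temperate pair. Alternatives used DESeq2 1.42.0, limma 3.58.1, other scaling and filters, and left out replicate numbers or cultivars. The cultivars compared and the rules were chosen with earlier results of these data known.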

Additional observations from a re-analysis of the deposited data

Results flagged for a closer look

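LOC_Os03g20330 stood out because its difference between the temperate pair and the other japonica cultivars changed with drought in the test of that change itself, with a log2 difference of responses of 1.94. It rose by a fold of 3.95 and 5.51 in Koshihikari and WRC01, and by 1.15 to 1.7 in the others, and the call was lost without replicates numbered 1 or 2.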

How the results depend on the processing

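The 170 called genes rest on few cultivars: without Koshihikari 89 genes and without WRC01 82 genes were called, with the lone temperate cultivar assumed to vary like the others, and 71 and 64 of these were among the 170. Over all cultivars and replicate numbers left out in turn the count ran from 82 to 213, and the share on chromosome 6 from 15.6 to 21.4%. Scaling by RLE gave 168 genes, no filter 168, a mean of at least 1 CPM 127, and limma 237. DESeq2 gave 635, with 35.7% higher in the temperate pair in place of 67.1%, and 11.3% on chromosome 6. With libraries as the unit, where only the spread within cultivars counts, 1299 genes were called without a block and 1303 with replicate number as a block (10.7 and 10.6% on chromosome 6). The replicate numbers showed no uniform pairing of samples: the deviations of same-numbered libraries correlated at -0.467 to 0.641, with a median of 0.0526 and 46 pairs over 0.1. These values do not settle whether some same-numbered libraries shared conditions. The range rule gave 3757 genes at any fold, 616 at a fold of at least 4, and 311 with every library outside the range; without a replicate number it gave 1145 to 1276. Genes read on one side only numbered 22 at 1 CPM, 20 with up to 3 reads allowed, and 11 to 15 without a replicate number. Without a replicate number, drought leaves gave 92 to 130 genes, 91 to 94% of the called genes kept their range there, the temperate pair correlated at 0.98 to 0.982, the median number of the remaining cultivars nearer the temperate pair was 2 to 2.5, and 0 to 1 gene changed with drought. Of 205 values of named genes under alternatives that kept their call and 5 that lost it, none turned direction; 4 of the 5 are LOC_Os09g17329 and LOC_Os07g01290 without either temperate cultivar, and LOC_Os03g20330 lost it without WRC01. Where no other statement is made, the cause of a change was not tested. Depth limits the genes at 0: 3 reads over a side equal 0.00922 CPM for the 21 other libraries and 0.0346 CPM for the 6 temperate ones.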

Other observations

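Among the 52 called genes read in all 9 cultivars, no single one of the other 7 marked the edge toward the temperate pair. WRC46 lay nearest to the temperate level in 10 of them, WRC47 and WRC51 in 9 each, KP in 8, WRC48 in 7, WRC55 in 5 and WRC50 in 4. In each of the 31 remaining cultivars the profile over all tested genes had a higher median correlation with the 7 others than with the temperate pair. The highest was that of WRC44, at 0.925 with the 7 and 0.906 with the pair.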
